A study of Mus musculus with 6 samples.

Results

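The genes described here are 10 of the 24975 in the count table, matched by gene symbol and chosen as markers of extraembryonic mesoderm and allantois: Ahnak, Hand1, Tbx4, Plac1, Pmp22, Vcam1, Itga4, Bst2, Bambi and Postn. The study compared sorted mouse mesoderm at embryonic day 7.5 with and without Gli3R, a repressor form of the transcription factor Gli3 that blocks Hedgehog output. Control embryos were Mesp1-Cre/+;R26-tdTomato/+ and the others, called Gli3R below, were Mesp1-Cre/+;R26-Gli3R-IRES-Venus/+. Both genotypes carried Mesp1-Cre, a recombinase expressed from a gene of the nascent mesoderm, so that each reporter marks the cells with a history of Mesp1 expression. There were 3 libraries per group, 1 of each group from each of 3 litters, with 1000 sorted cells per library from a pool of littermate embryos. Control cells were sorted by tdTomato and Gli3R cells by Venus, per the notes in the deposited table, so an effect of Gli3R and an effect of the reporter or its gate cannot be told apart. How many embryos made up a pool is not given in the sources used here.

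Extraembryonic mesoderm leaves the posterior primitive streak early and lines the amnion, chorion and visceral yolk sac. The allantois grows from it as a bud that crosses the exocoelomic cavity, joins the chorion and becomes the umbilical vessels. The joining uses an adhesion pair, VCAM1 on the allantois and integrin alpha 4 on the chorion, and BMP signals and the transcription factors HAND1 and TBX4 act in these tissues. Extraembryonic mesoderm descends largely from Mesp1-expressing precursors and can therefore be present in a Mesp1-Cre sort.

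The libraries held 5481190 to 12635151 counts, so 1 count stood for 0.0777 to 0.186 CPM (counts relative to library size, TMM-scaled between libraries). Control replicate 1, the shallowest library, lay apart from the others on the first principal component (-39.8, against -2.25 to 19.2, with 35.0% of the variance). Gli3, part of which the transgene carries, stood at 25.8 to 34.4 CPM in control and 39.0 to 50.9 CPM in Gli3R libraries (log2 fold change 0.57, edgeR adjusted p = 0.312), and the counts do not separate the transgene from the endogenous gene. All 12 listed mesoderm markers were detected, and they summed to 645 to 689 CPM in control and 699 to 712 CPM in Gli3R libraries, with Fn1 and Vim as the main parts. Of the 12, 5 had log2 fold changes above 0 and 7 below, and 0 passed in the edgeR test. Kdr was higher and T, Mesp2 and Tbx6 lower at an unadjusted edgeR p under 0.05, beside 3.56% and 3.29% of all genes tested. DESeq2 and limma-voom called 0. With litter as a block 1 passed, T, as lower. Of 14 measured trophoblast markers, 10 stayed under 1 CPM in every library, and Elf5 and Tpbpa had no read.

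Promoter sequence is shown for 3 of the genes: Ahnak, the gene whose call opens the results; Pmp22, the most abundant member; and Bst2, whose upstream letters include an interferon-response core. Each line gives the 250 bases before an annotated transcription start in RefSeq, build GRCm38.p6, which is not the build named for the counts. Capitals mark GC boxes (GGGCGG on either strand) for Ahnak and Pmp22 and the interferon-response core, a pair of GAAA repeats set apart by any 2 bases, on either strand, for Bst2.
Ahnak, chr19:8989034-8989283, + strand: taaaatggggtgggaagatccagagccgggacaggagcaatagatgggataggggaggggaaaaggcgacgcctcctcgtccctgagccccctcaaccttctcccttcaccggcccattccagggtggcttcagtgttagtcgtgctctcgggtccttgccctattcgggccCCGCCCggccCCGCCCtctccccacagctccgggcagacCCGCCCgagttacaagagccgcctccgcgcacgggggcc
Pmp22, chr11:63132553-63132802, + strand: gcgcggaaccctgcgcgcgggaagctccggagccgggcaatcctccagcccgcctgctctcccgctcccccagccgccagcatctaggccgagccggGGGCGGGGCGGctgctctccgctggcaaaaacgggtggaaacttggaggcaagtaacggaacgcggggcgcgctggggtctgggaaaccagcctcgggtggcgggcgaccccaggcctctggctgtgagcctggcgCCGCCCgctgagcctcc
Bst2, chr8:71537473-71537722, - strand: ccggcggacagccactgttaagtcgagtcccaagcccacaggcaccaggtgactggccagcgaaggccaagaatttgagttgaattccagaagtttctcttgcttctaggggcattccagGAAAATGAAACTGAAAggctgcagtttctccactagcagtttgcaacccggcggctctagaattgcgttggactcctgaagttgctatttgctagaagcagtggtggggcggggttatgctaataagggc
The Ahnak window holds 3 GC boxes and 18 CpG dinucleotides. The Pmp22 window, 1 of 4 annotated starts, holds 3 GC boxes, 2 of which overlap, and 27 CpG. It was picked as the Pmp22 window with the most GC boxes, and not all 4 windows hold one. The median over all 32851 windows was 6 CpG, and 32.7% of all windows hold a GC box. The Bst2 window holds 2 overlapping interferon-response cores, a motif found in 2.98% of all windows. The windows read here cover 7 of the 10 genes, 12 windows in all. Hand1, Vcam1 and Bambi are not among them and were not read for motifs, whether or not RefSeq holds a start for them. None of the 12 held the GLI core GGGTGGTC on either strand, which 0.703% of all windows hold, or the T-box letters AGGTGTGA, which 1.12% hold. The E-box CANNTG, the class of site that basic helix-loop-helix factors such as HAND1 bind, was present in 5 of the 12 windows and in 66.2% of all windows.

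The 10 genes spanned a wide range of levels in control mesoderm. Scaled per kilobase of exon, Pmp22 was highest at 197 ± 52.5 CPM per kb (SD, n = 3), followed by Hand1 at 66.7 ± 8.34, Plac1 at 41.8 ± 12.7 and Bambi at 27.3 ± 5.69 CPM per kb. A wide gap separated these 4 from the rest. Bst2 stood at 2.95 ± 0.48, Tbx4 at 2.90 ± 0.86, Ahnak at 2.32 ± 0.26 and Postn at 1.35 ± 1.24 CPM per kb. Itga4 (0.62 ± 0.28 CPM per kb) and Vcam1 (0.50 ± 0.41 CPM per kb) were lowest. The control libraries did not overlap between Pmp22 and Hand1, between Hand1 and Plac1, or between Bambi and Bst2. Every other pair of neighbours in this order overlapped, from Plac1 with Bambi down to Itga4 with Vcam1. Lengths came from another build and pool the exons of all basic protein-coding transcripts, so the order is approximate.

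**Figure D1:**
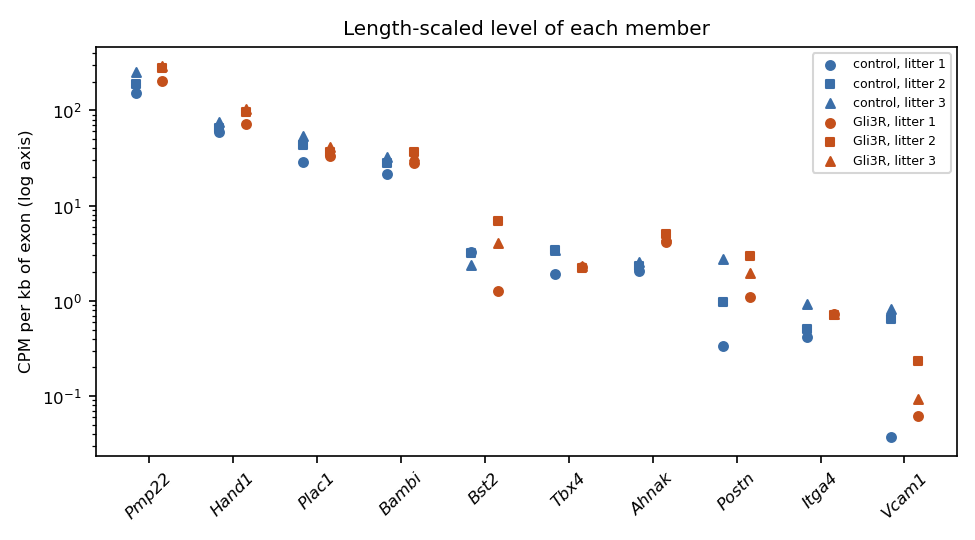
Level of each gene per kilobase of exon (log axis, CPM per kb) in the 6 libraries, control in blue and Gli3R in orange, with a symbol shape for each litter. Pmp22, Hand1, Plac1 and Bambi form an upper set above 20 CPM per kb, and Vcam1 in control replicate 1 is the lowest point at 0.0372 CPM per kb.

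Gli3R mesoderm held more Ahnak RNA, and Ahnak was the 1 gene of the 10 that passed the test over all genes. Ahnak encodes a very large scaffold protein under the plasma membrane that binds the S100A10 and annexin A2 complex. Its level was 37.7, 42.8 and 47.3 CPM in control replicates 1, 2 and 3 and 76.7, 91.4 and 88.5 CPM in Gli3R replicates 1, 2 and 3, numbered by litter. The groups did not overlap, as in 5.62% of all genes tested in that direction. The lowest Gli3R library lay well above the highest control library. The means were 42.6 ± 4.83 and 85.5 ± 7.77 CPM (SD, n = 3 each), a log2 fold change of 1.00 ± 0.12 (SE) with a 95% interval of 0.74 to 1.26 (edgeR quasi-likelihood test, adjusted p = 0.0172 by Benjamini-Hochberg over 11913 genes). Within litters, the log2 difference was 1.02, 1.09 and 0.90, and with litter as a block the adjusted p was 0.0121. In sorted cells, more cells that express a gene and more RNA per cell cannot be told apart.

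The call on Ahnak rested on more than 1 library. It was lost without control replicate 2 (edgeR adjusted p = 0.154), Gli3R replicate 2 (0.118) or Gli3R replicate 3 (0.0826), while the log2 fold change stayed between 0.93 and 1.08 whichever library was left out. Without control replicate 1, the library that stood apart, it was 0.93 with an edgeR adjusted p of 0.0165. Called higher at an adjusted p under 0.05 were 3 genes, or 0.0252% of all genes tested, and called lower 13, or 0.109%. Of the 10 genes, 9 were expressed enough to be tested, with 1 higher and 0 lower. At an unadjusted edgeR p under 0.05, 2 of the 9 were higher and 0 lower (3.56% and 3.29% of all genes tested), and DESeq2 and limma-voom also called 0 lower. The 9 log2 fold changes ran from -0.38 to 1.00 with a median of 0.40, beside a median of -0.0079 over all genes tested.

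**Figure D2:**
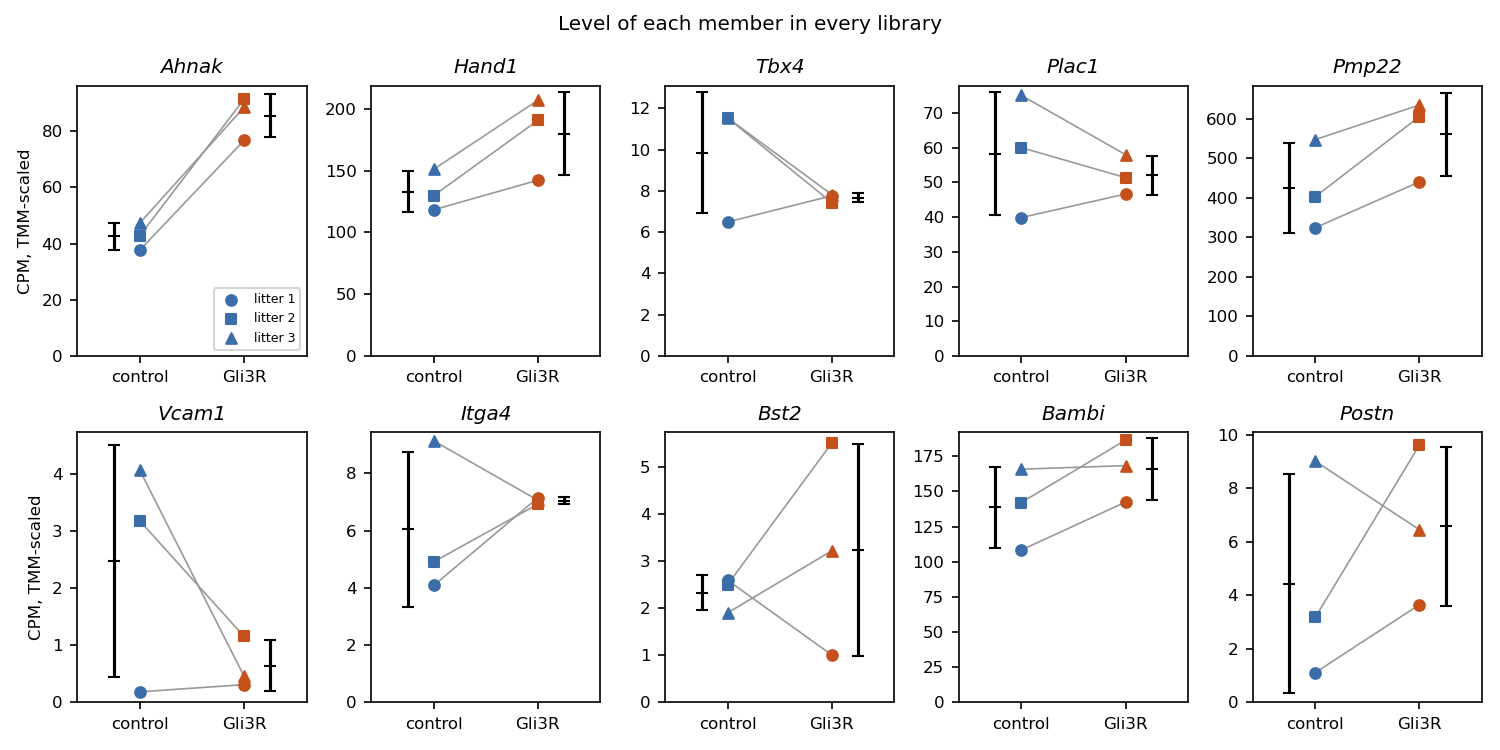
CPM of each gene in every library, on linear axes that start at 0, with the 2 libraries of a litter joined by a line and mean ± SD (n = 3) in black. Ahnak is the gene whose groups do not overlap, and the control library of litter 1 is the lowest control library for every gene but Bst2.

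Genes listed around the AHNAK complex had fold changes above 0 that did not pass. Of 5 tested on the list of AHNAK partners and S100 genes, 0 passed in either direction in the edgeR test. At an unadjusted edgeR p under 0.05, 1 was higher, beside 3.56% of all genes tested. DESeq2 and limma-voom called 0. Anxa2, which encodes annexin A2, stood at 77.0, 96.4 and 159 CPM in control and 142, 237 and 229 CPM in Gli3R libraries. Its groups overlapped through control replicate 3, and its log2 fold change was 0.86 ± 0.26 (edgeR adjusted p = 0.441, and 0.0596 with the litter block). Dysf, the gene of the membrane-repair protein dysferlin, had 27 and 63 reads (1.08 ± 0.49, adjusted p = 0.730), and S100a6 stood at 0.37 ± 0.22. S100a10, named after its values were seen because its protein joins AHNAK to annexin A2, stood at 0.13 ± 0.15. All 5 values were above 0, beside 5735 of 11913 genes tested.

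The transcription factor genes of the set differed in level and in direction. Hand1, a basic helix-loop-helix factor needed in extraembryonic mesoderm and heart, stood at 118, 130 and 151 CPM in control and 142, 191 and 207 CPM in Gli3R libraries. Each Gli3R library lay above the control library of its litter, but Gli3R replicate 1 lay below control replicate 3, so the groups overlapped. Its log2 fold change of 0.43 ± 0.14 (SE; 95% interval 0.11 to 0.75) did not pass over all genes (edgeR adjusted p = 0.509, and 0.123 with the litter block). Tbx4, a T-box factor of the allantois and later of the hindlimb, had 246 reads in control and 209 in Gli3R libraries. Its level was 6.49, 11.5 and 11.5 CPM in control and 7.77, 7.43 and 7.83 CPM in Gli3R libraries, so that the Gli3R libraries lay close together between control replicate 1 and the other two. The log2 fold change was -0.38 ± 0.23 (95% interval -0.91 to 0.14, edgeR adjusted p = 0.902) and, without control replicate 1, -0.58 ± 0.19 (adjusted p = 0.441).

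Of 10 tested relatives and partners of these factors, 0 passed in the edgeR test, with 0 at an unadjusted p under 0.05. DESeq2 and limma-voom called 0. Their log2 fold changes ran from -0.29 to 0.87 with a median of 0.03. The limb and posterior homeobox gene Pitx1 stood at 0.51 ± 0.25 and the T-box gene Tbx2, with 31 and 59 reads, at 0.87 ± 0.53. Tcf4, which encodes an E protein that pairs with HAND factors, stood at 20.6 to 22.3 CPM in control and 16.7 to 20.6 CPM in Gli3R libraries (-0.20 ± 0.13, edgeR adjusted p = 0.926). Its groups did not overlap by a narrow margin, as those of 6.33% of all genes tested did in that direction.

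Pmp22 encodes a tetraspan membrane glycoprotein best known from peripheral myelin. It supplied 50.2% to 53.7% of the reads of all 10 genes in each library. Its level was 324, 403 and 547 CPM in control and 440, 605 and 635 CPM in Gli3R libraries. Each Gli3R library again exceeded the control of its litter, by 0.44, 0.59 and 0.21 on the log2 scale, while the groups overlapped. The fitted log2 fold change was 0.40 ± 0.19 (95% interval -0.03 to 0.82, edgeR adjusted p = 0.751, and 0.165 with the litter block). Without control replicate 1 it was 0.24 ± 0.16.

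Among the related tetraspan genes, 3 were tested and 1, Emp2, was called higher, where 0.0252% of all genes tested were. Emp2, an epithelial membrane protein gene, stood at 5.94, 7.02 and 8.24 CPM in control and 15.1, 16.4 and 18.1 CPM in Gli3R libraries (log2 fold change 1.21 ± 0.18, edgeR adjusted p = 0.0461). Its groups did not overlap, as in 5.62% of all genes tested in that direction. The call was lost whichever library was left out, at edgeR adjusted p-values of 0.0661 to 0.282 and log2 fold changes of 1.12 to 1.33, with limma-voom (adjusted p = 0.0548) and with a filter of at least 5 CPM in 3 libraries (edgeR adjusted p = 0.0549). Emp3 stood at 0.57 ± 0.27 and Perp at -0.43 ± 0.31, each with overlapping groups (edgeR adjusted p = 0.757 and 0.939), and Emp1, with 21 and 24 reads, was too sparse to test. These 3 were named after their values were seen, to complete the family.

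**Figure D3:**
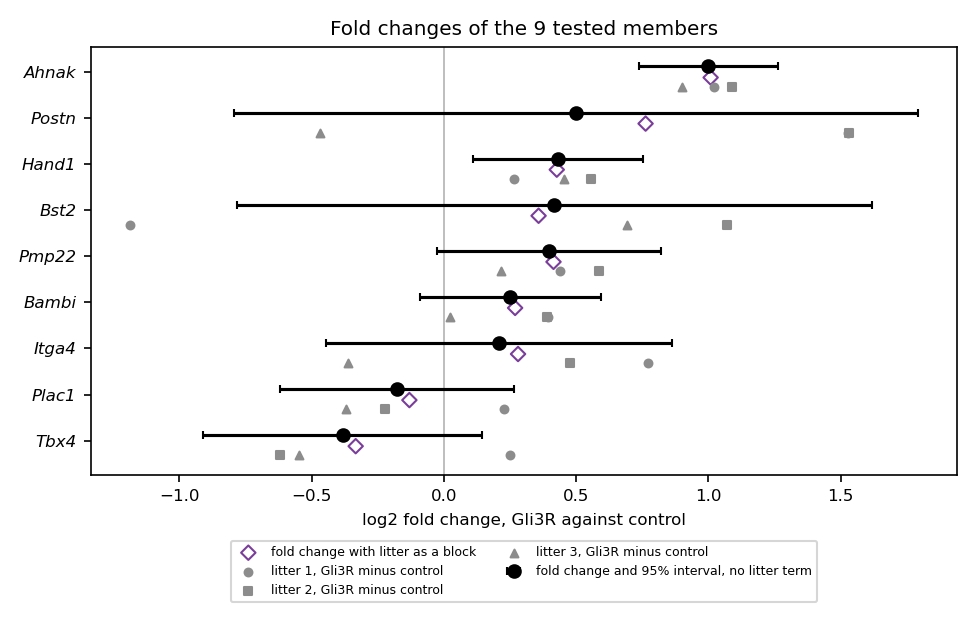
Log2 fold change of the 9 tested genes, Gli3R against control: black points with 95% intervals without a litter term, open diamonds with litter as a block, and grey symbols for the difference within each litter. The intervals of Ahnak (0.74 to 1.26) and Hand1 (0.11 to 0.75) lie above 0, and Ahnak alone passed after adjustment over all genes.

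The genes of the adhesion pair of the chorioallantoic junction were the lowest of the 10 per kilobase of exon in control. Of the 10, only Vcam1 fell under the expression filter. Bst2, with 13 to 43 reads per library, and Postn, with 6 in control replicate 1, also had few reads. Vcam1, which encodes the immunoglobulin-family receptor on the allantois, had 1, 33 and 32 reads in control and 4, 9 and 3 reads in Gli3R libraries, or 0.19, 3.17 and 4.06 against 0.31, 1.15 and 0.46 CPM. Control replicates 2 and 3 were high, and control replicate 1 was the lowest of the 6 libraries, so the groups overlapped. Summed over libraries, 66 reads stood against 16, a 4.74-fold lower rate with Gli3R (95% interval 2.71 to 8.77, which covers counting error only and not the spread between libraries). Vcam1 was under the expression filter; without the filter its log2 fold change was -2.07 ± 0.63 and did not pass (edgeR adjusted p = 0.199 over 18719 genes, and 0.119 with the litter block). Without control replicate 1 it was tested at -2.54 ± 0.51 and did not pass either (adjusted p = 0.131). By litter the direction was not shared, with log2 differences of 0.37, -1.30 and -2.62 in litters 1, 2 and 3.

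Itga4, the gene of the integrin alpha 4 subunit that binds VCAM1 and fibronectin, had 22, 51 and 72 reads in control and 92, 54 and 46 in Gli3R libraries. Scaled to depth these were 4.08, 4.91 and 9.13 CPM against 7.14, 6.92 and 7.06 CPM. The Gli3R libraries lay within the range of the control libraries, and litter 3 went the other way from litters 1 and 2. The log2 fold change was 0.21 ± 0.29 (95% interval -0.45 to 0.86, edgeR adjusted p = 0.996). It was 0.028 without control replicate 1, 0.061 without control replicate 2 and 0.63 without control replicate 3, and did not pass in any of these fits. Of 6 tested integrin partners and ligands, 0 passed in the edgeR test, with 0 at an unadjusted p under 0.05. DESeq2 and limma-voom called 0. All 6 log2 fold changes were above 0, beside 5735 of 11913 genes tested. Of the 6, 3 were higher with Gli3R in all 3 litters, as were 15.0% of all genes tested. Itgb1, the beta 1 subunit that pairs with alpha 4, stood at 166 ± 35.8 and 191 ± 25.3 CPM. The fibronectin gene Fn1 stood at 241 ± 27.6 and 271 ± 15.9 CPM, and Itga5, the alpha subunit of the main fibronectin receptor, at 5.38 and 7.96 CPM on average.

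Plac1, an X-linked gene best known from trophoblast, stood at 39.9, 60.0 and 75.1 CPM in control and 46.7, 51.4 and 58.0 CPM in Gli3R libraries. All Gli3R libraries lay within the control range. The log2 fold change was -0.18 ± 0.20 (95% interval -0.62 to 0.27, edgeR adjusted p = 0.992), and without control replicate 3 it was 0.042. Markers of trophoblast summed to 15.1 to 20.4 CPM in control and 9.47 to 17.3 CPM in Gli3R libraries, less than Plac1 alone in each library. Levels of unlike genes do not give the share of trophoblast cells, which was not tested. Of 4 tested, 0 passed in the edgeR test, and DESeq2 and limma-voom called 0. With 0 higher, 2 were lower at an unadjusted edgeR p under 0.05, Ascl2 and Plet1, beside 3.56% and 3.29% of all genes tested. Elf5 and Tpbpa, which define trophoblast stem cells and spongiotrophoblast, were at 0 in all 6 libraries.

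Bambi encodes a membrane protein that resembles a BMP and TGF-beta receptor but lacks the kinase domain and dampens signalling. It stood at 108, 142 and 166 CPM in control and 142, 186 and 168 CPM in Gli3R libraries. Each Gli3R library was above the control library of its litter, in litter 3 by 0.022 on the log2 scale, and the groups overlapped. The log2 fold change was 0.25 ± 0.15 (95% interval -0.09 to 0.59, edgeR adjusted p = 0.902) and was 0.11 ± 0.12 without control replicate 1.

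Of 18 tested genes of BMP signalling, 0 passed in the edgeR test, and the median log2 fold change was 0.10. That test had 1 higher and 0 lower at an unadjusted p under 0.05, beside 3.56% and 3.29% of all genes tested. DESeq2 called 1 higher and limma-voom 0. The 1 was Bmp4, the main BMP ligand of the extraembryonic tissues. Bmp4 stood at 107, 117 and 155 CPM in control and 162, 217 and 228 CPM in Gli3R libraries (0.68 ± 0.16, edgeR adjusted p = 0.245). With litter as a block it was called higher (adjusted p = 0.0424). The groups did not overlap, as in 5.62% of all genes tested in that direction.

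Bst2 encodes tetherin, an interferon-induced membrane protein that holds budding virus particles. It had 14, 26 and 15 reads in control and 13, 43 and 21 in Gli3R libraries, or 2.60, 2.50 and 1.90 against 1.01, 5.51 and 3.22 CPM. Gli3R libraries were both the lowest and the highest of the 6. The log2 fold change was 0.42 ± 0.54 (95% interval -0.78 to 1.62, edgeR adjusted p = 0.996) and turned to -0.25 without Gli3R replicate 2. Of 13 interferon-induced genes measured, 7 were expressed enough to be tested and 0 passed in the edgeR test. DESeq2 and limma-voom called 0. In the edgeR test 0 were higher and 1 lower at an unadjusted p under 0.05, beside 3.56% and 3.29% of all genes tested. That 1 was Ifitm1, a membrane protein gene of the early posterior mesoderm, with 388 ± 105 CPM without and 285 ± 55.2 CPM with Gli3R; it has close relatives, and how shared reads were counted is not given. Irf9, which encodes a part of the interferon-activated factor, averaged 2.82 ± 0.38 CPM without and 3.81 ± 0.96 CPM with Gli3R (0.39 ± 0.29, edgeR adjusted p = 0.939). The groups of Irf9 did not overlap, as in 5.62% of all genes tested in that direction. Isg15, Ifit1, Ifit3, Irf7, Mx1 and Rsad2, named after their values were seen, each stayed under 1 CPM in every library.

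Postn encodes periostin, a matrix protein of mesenchyme. It had 6, 33 and 71 reads in control and 47, 75 and 42 in Gli3R libraries, or 1.11, 3.17 and 9.01 against 3.65, 9.61 and 6.44 CPM. The control libraries spread over a wider range than the Gli3R libraries and the groups overlapped. The log2 fold change was 0.50 ± 0.58 (95% interval -0.79 to 1.79, edgeR adjusted p = 0.993), and with the litter block 0.76 ± 0.43 (adjusted p = 0.721). Within litters it was 1.53, 1.53 and -0.47. The fitted value was 0.11 without control replicate 1, 0.27 without control replicate 2, 1.47 without control replicate 3, 0.82 without Gli3R replicate 1 and 0.11 without Gli3R replicate 2, and did not pass in any of these fits. Without both libraries of litter 2 it turned to -0.10.

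Matrix genes listed around Postn stood above 0 in 8 of 8 tested, beside 5735 of 11913 over all genes. Their median log2 fold change was 0.46, and 0 passed in the edgeR test. There were 4 higher and 0 lower at an unadjusted edgeR p under 0.05, beside 3.56% and 3.29% of all genes tested. DESeq2 called 1 higher, Col1a1, and limma-voom 0. The collagen gene Col1a1 stood at 5.01, 2.60 and 5.71 CPM in control and 8.93, 13.6 and 9.67 CPM in Gli3R libraries, with no overlap (1.30 ± 0.31, edgeR adjusted p = 0.245). Col5a1 stood at 0.44 ± 0.15 without overlap. Of the 8 tested, 3 had groups that did not overlap, with Gli3R higher, beside 5.62% of all genes tested. Sparc, which encodes a collagen-binding matrix protein, stood at 224 ± 43.4 and 312 ± 66.5 CPM (0.47 ± 0.18, adjusted p = 0.618, and 0.0631 with the litter block).

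A list of 30 other genes of extraembryonic mesoderm, allantois and amnion was read in the same fit, which shares all its libraries with the 10. It was chosen with earlier results of these data known, so its counts beside all genes are a description and not a test. Of 29 tested, 0 were called higher and 1 lower in the edgeR test, beside 0.0252% and 0.109% of all genes tested. At an unadjusted edgeR p under 0.05, 8 were higher and 5 lower, beside 3.56% and 3.29% of all genes tested. DESeq2 called 6 higher and 1 lower, limma-voom 0 and 0. The median log2 fold change was 0.20, with 19 values above 0 and 10 below. Hsd11b2, which encodes an enzyme that inactivates glucocorticoids, fell from 16.6 ± 5.68 to 4.38 ± 0.61 CPM (-1.93 ± 0.27, edgeR adjusted p = 0.0365). That call was lost when control replicate 2 or 3 or any 1 Gli3R library was left out (edgeR adjusted p = 0.0626 to 0.222).

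With litter as a block, 3 genes of that list passed as higher and Hsd11b2 again as lower, where 0.0755% and 0.151% of all genes tested did. Those higher were the homeobox gene Msx1 (edgeR adjusted p = 0.0121), Bmp4 (0.0424) and the cell-cycle inhibitor gene Cdkn1c (0.0238). Msx1 stood at 63.6, 84.9 and 85.2 CPM in control and 112, 149 and 154 CPM in Gli3R libraries, so the groups were apart. Of the 29 tested on that list, groups did not overlap for 7 as higher and 3 as lower. Over all genes tested, 5.62% and 6.33% did not overlap. Cdkn1c stood at 40.8, 61.8 and 70.3 CPM in control and 79.1, 96.6 and 137 CPM in Gli3R libraries. The 3 further genes that DESeq2 called higher were Tagln, Krt19 and Peg3, a smooth muscle, a keratin and an imprinted zinc finger gene, at log2 fold changes of 0.92, 0.90 and 0.40 in the edgeR fit.

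**Figure D4:**
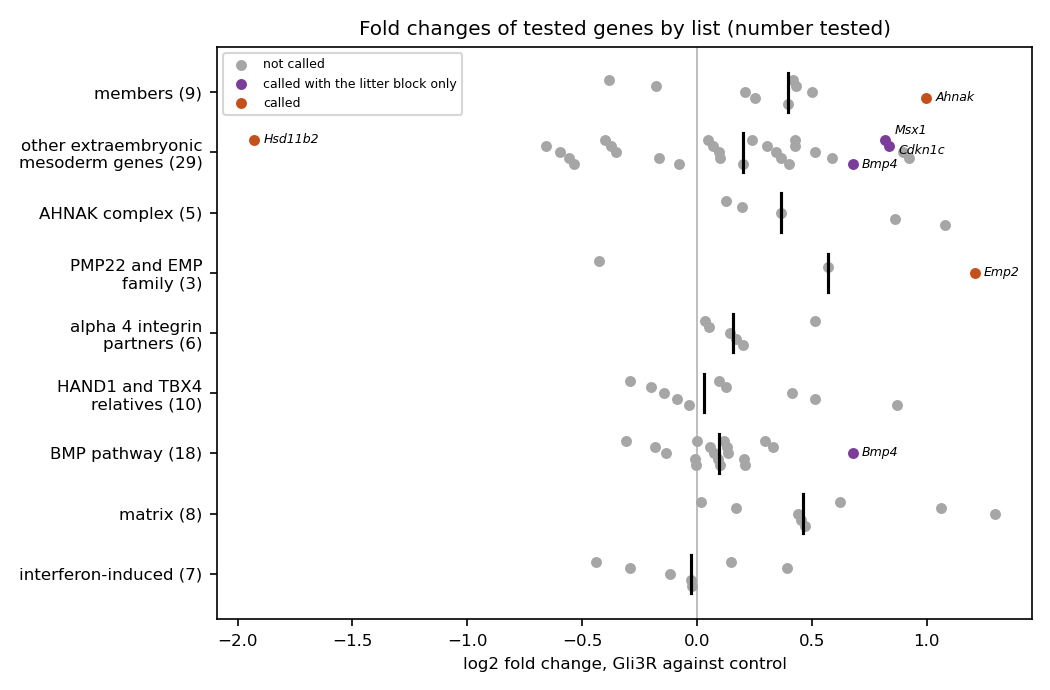
Log2 fold change of each tested gene by list, Gli3R against control, with the number tested in brackets and the list's median as a black bar. Orange points passed over all genes without a litter term (Ahnak, Emp2 and Hsd11b2) and purple points with the litter block alone (Msx1, Bmp4, on 2 lists, and Cdkn1c).

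The 10 genes also differed between litters. Summed, they stood at 643, 803 and 1022 CPM in control and 868, 1156 and 1182 CPM in Gli3R libraries of litters 1, 2 and 3, with Pmp22 as the main part of each sum. Litter 1 was the lowest of its group for 9 of 10 genes in control and 8 of 10 in Gli3R libraries. Over all genes tested, it was the lowest for 38.6% and 33.5%. In each litter the Gli3R sum exceeded the control sum, and the groups overlapped.

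Of the 9 tested genes, 4 (Ahnak, Hand1, Pmp22 and Bambi) were higher with Gli3R in all 3 litters and 0 were lower in all 3, where 15.0% and 15.3% of all genes tested were.

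Markers of the primitive streak and of other cell types were read in the same libraries. T, the Brachyury gene of the primitive streak, stood at 43.6, 16.4 and 7.99 CPM in control and 8.08, 5.13 and 3.53 CPM in Gli3R libraries, so litter 1 was highest in both groups and each Gli3R library was below the control library of its litter. Its log2 fold change was -1.93 ± 0.55 (edgeR adjusted p = 0.402), and with litter as a block it was called lower (adjusted p = 0.0373).

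Epiblast markers summed to 139 to 239 CPM in control and 127 to 149 CPM in Gli3R libraries, with Dnmt3b as the main part of each sum. Of 7 tested, 0 passed in the edgeR test (0 higher and 4 lower, Cdh1, Hesx1, Epcam and Pou5f1, at an unadjusted p under 0.05; DESeq2 called the 4 lower and limma-voom 0), and the median log2 fold change was -1.10. Groups did not overlap, with Gli3R lower, for 5 of the 7, the 4 and L1td1. Over all genes tested, 6.33% did not overlap in that direction and 3.29% were lower at an unadjusted edgeR p under 0.05. The other tested markers, Dnmt3b and Otx2, stood at -0.14 ± 0.13 and 0.12 ± 0.21, with overlapping groups. Cdh1, the gene of E-cadherin in epithelial cells, had 39, 37 and 18 reads in control and 7, 4 and 2 in Gli3R libraries (-3.11 ± 0.53, edgeR adjusted p = 0.0869). With litter as a block Cdh1 was called lower (adjusted p = 0.0327).

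Endothelial markers summed to 98.3 to 130 CPM in control and 158 to 179 CPM in Gli3R libraries, without overlap. Etv2 was the largest part of each sum, at 52.8 to 76.2 CPM in control and 83.2 to 108 CPM in Gli3R libraries. Tal1 stood at 12.8 to 17.6 and 29.6 to 32.5 CPM. Of 6 tested, 0 passed in the edgeR test. Tal1 and Etv2 were higher and 0 lower at an unadjusted edgeR p under 0.05, beside 3.56% and 3.29% of all genes tested. DESeq2 called both higher and limma-voom 0. Groups did not overlap, with Gli3R higher, for Tal1 and Etv2, beside 5.62% of all genes tested. All 6 log2 fold changes were above 0, but groups overlapped for the others, such as Pecam1 (0.05 ± 0.20) and Tek (0.21 ± 0.24). Cdh5 and Emcn, too sparse to test, averaged 0.96 and 0.33 CPM in control and 0.72 and 0.18 CPM in Gli3R libraries. Visceral endoderm markers summed to 45.3 to 102 and 69.8 to 127 CPM and erythroid markers to 192 to 427 and 191 to 661 CPM. Of 6 and 7 tested, 0 passed (edgeR; 0 at an unadjusted p under 0.05; DESeq2 and limma-voom called 0). Of the 8 endothelial, 10 epiblast and 12 visceral endoderm markers, 0 had no read throughout. The part of these cells in the levels of the 10 genes was not tested.

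**Figure D5:**
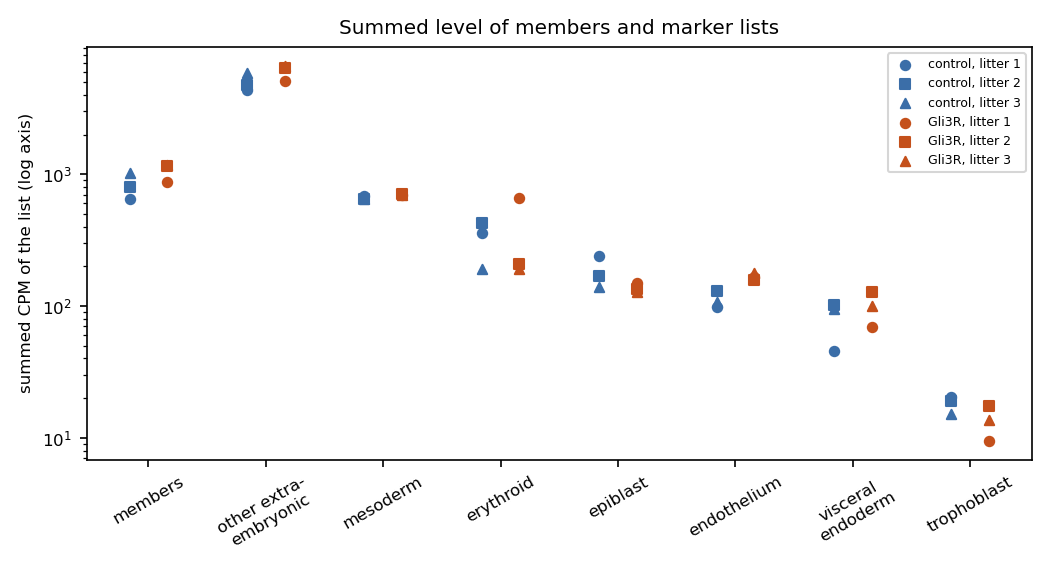
Summed CPM (log axis) of the 10 genes, of the list of other extraembryonic genes and of each marker list in the 6 libraries, control in blue and Gli3R in orange, with a symbol shape for each litter. Trophoblast markers sum to 20.4 CPM at most and the 10 genes, with Pmp22 as the main part, to at least 643 CPM. Sums of unlike lists do not give relative numbers of cells. The mesoderm sums and the endothelial sums, the latter with Etv2 as the largest part, do not overlap between groups.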

How the data were processed

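RNA of sorted mesoderm was sequenced in 3 control and 3 Gli3R libraries. The labels' protocols name a SMARTer Ultra Low kit for cDNA and Nextera XT for the libraries. The authors deposited raw counts per Entrez gene. Build mm9, featureCounts, Subread 1.4.6, TopHat2 2.0.14, edgeR and FastQC appear in the submitters' processing notes, without roles. The strand setting, the annotation and the handling of multiply mapped reads were not given in the sources used here. The 27 symbols turned into dates were restored by Entrez ID.

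In R 4.3.3, genes passing filterByExpr of edgeR 4.0.16 (minimum count 10; 11913 genes) were TMM-scaled and compared by the two-sided quasi-likelihood test, adjusted by Benjamini-Hochberg over all genes, with a threshold of 0.05. SE is the log2 fold change over the square root of F. Litter differences use log2 CPM with prior count 2. The median log2 fold change over all genes stayed within -0.0079 to 0.0035 under each scaling. The pipeline was tested on simulated data. Library pairs differed by a chi-square of 4.12 to 15.2 per gene, so none was a copy of another.

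Replicate numbers mark shared litters, per the labels. The correlation of deviations from the group mean was 0.168, 0.187 and 0.0755 for libraries of a shared litter, and -0.269 to 0.162 for libraries of different litters. The labels name litters, but no source states that the study fitted them, so the main fit has no litter term. The litter block is a second fit. Intervals of the main fit thus include the spread between litters. The SE was smaller with the block for each tested member, such as Pmp22 (0.19 to 0.091) and Hand1 (0.14 to 0.085). The p-values measure the spread between pools of littermates. Intervals on reads cover counting error only.

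All 10 genes are named. From each list of genes related to them, members past the threshold with or without the block are named, else up to 3 with the smallest p; others are marked. Single genes of the cell type marker lists were named after their values were seen. Of the genes so named, 1 is not reported here. Members and lists were chosen with earlier results of these data known. Their counts and medians beside those of all genes are therefore descriptions and not tests. Alternatives were the litter block, DESeq2 1.42.0 size factors or library size alone, no filter or at least 5 CPM in 3 libraries, DESeq2, limma-voom (limma 3.58.1) and leaving out each library. Leaving out litters, and no filter with the litter block, were added after seeing the data.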

Additional observations from a re-analysis of the deposited data

How the results depend on the processing

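Ahnak stayed higher under all 17 alternatives, at log2 fold changes of 0.93 to 1.08, and missed the threshold in 5, each with 1 library or 1 litter left out (edgeR adjusted p up to 0.701, without litter 2). Hand1 and Pmp22 passed in 1 alternative, no filter with the litter (replicate) block (edgeR adjusted p = 0.00825 and 0.00511), where 3 members were called. By itself the litter block changed no call on a member. Directions turned for Plac1 without control replicate 3 (0.042; -0.38 to 0.042 over the single libraries), Bst2 with limma-voom (-0.040), without Gli3R replicate 2 (-0.25; -0.25 to 0.92 over the single libraries) and without litter 2 (-0.16), and Postn without litter 2 (-0.10). Over all genes, higher calls went from 3 to 9 with the litter block, 5 with library size alone, 49 without the filter, 1 with the 5 CPM filter, 43 with DESeq2, 1 with limma-voom and 160 without the filter and with the block. Lower calls went from 13 to 59 without the filter, 51 with DESeq2 and 124 without the filter and with the block. In the other extraembryonic list, higher calls went from 0 to 3 with the block, 6 without the filter, 6 with DESeq2 and 10 without the filter and with the block; lower calls went from 1 to 0 with limma-voom and 2 without the filter and with the block. The causes were not tested. Leaving out 1 library gave 0 to 2 higher and 0 to 16 lower calls over all genes, and leaving out a litter 0 to 5 and 0 to 22; both together gave 0 to 1 members higher, and 0 to 1 higher and 0 to 2 lower in the other list. Depth limits Vcam1, which rests on 66 and 16 reads, and Bst2, which rests on 55 and 77.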

Other observations

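The control libraries varied more than the Gli3R libraries for most of the 10 genes. The SD of log2 CPM was larger among control libraries for 8 of 10 genes, the exceptions being Hand1 and Bst2, beside 56.6% of all genes tested. It was 0.47 against 0.039 for Tbx4 and 0.59 against 0.022 for Itga4, the smallest SDs among Gli3R libraries. Those libraries held 51 to 100 reads of Tbx4 and 46 to 92 of Itga4. Counting error alone spreads such reads more widely, so these small SDs do not show a more uniform level. Without litter 1, 7 of the 10 genes still had the larger SD among control libraries, beside 44.5% of all genes tested. These are descriptions of 3 libraries, or 2 without litter 1, in each group, and no test was made.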
